A study of Sus scrofa with 6 samples.

Results

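The chemokines, the interleukins with the colony stimulating factors, and their receptors were followed in pig lung across birth. Members were taken by gene symbol from the mRNA table: chemokine and chemokine receptor names followed by digits, names made of IL and digits with or without a suffix, and CSF1, CSF2, CSF3, LIF and OSM. The IL-1 and IL-18 genes IL1A, IL1B, IL1RN, IL1R1, IL18, IL18R1, IL18BP, IL33 and IL1RL1 were left out. The rule matched 50 of the 14579 mRNAs of the table. The reference gene table holds 110 symbols that meet the rule, and 60 of them, CXCL8, CXCL12, CXCR4, IL6 and LIF among these, had no row under their symbol and were not analysed here. By role, the 50 members are 9 chemokines, 10 chemokine receptors, 2 atypical chemokine receptors, 8 interleukins or colony stimulating factors, 20 interleukin receptor chains and 1 enzyme, IL4I1, which carries the name of the interleukin that induces it.

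The animals were female Tibetan-Meishan hybrids, from Tibetan pig sires and Meishan dams, and neither group was treated. The fetal group, labelled prenatal, was made of 3 piglets taken from 3 sows on the last day of pregnancy, and the neonatal group of 3 piglets aged 2 days from 3 other sows. A piece of frozen lung of each piglet gave 1 strand-specific, rRNA-depleted RNA library, so each value is that of a mixture of lung and blood cells. Stage, sow and mode of delivery (the methods name caesarean and parturition) differed together between the groups and cannot be told apart. Each piglet was the offspring of a different sow.

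Chemokines are small secreted proteins that guide leukocytes along their gradients, and they act through G protein-coupled receptors named after the same CC, CXC, CX3C and XC motifs. Atypical receptors bind chemokines but do not couple to G proteins in the usual way, and they remove or store their ligands. Interleukins and colony stimulating factors act mostly through receptors built of a private chain and a shared one, such as the common gamma chain IL2RG or the gp130 chain IL6ST, which signal through JAK kinases and STAT factors. In the lung these systems are known for the recruitment and upkeep of macrophages, granulocytes and lymphocytes after contact with air and microbes.

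Levels are given as FPKM, read fragments scaled to transcript length and to the number of mapped reads, as the authors deposited them. FPKM corrects for transcript length, so that levels of different genes can be set side by side, but the table holds no read counts and the depth behind a value is unknown here. Every mRNA of the table had FPKM above 0.5 in at least 1 sample. Of the members, 5 passed this limit through neonatal samples alone and 3 through fetal samples alone. Such genes were listed only for a value above the limit in 1 group, so the filter favoured a difference in its direction. The groups still overlapped in 3 of the 5 and in all 3 of the others. The neonatal and fetal groups were compared by limma, fitted to log2(FPKM + 1), and p-values were adjusted over all mRNAs by the Benjamini-Hochberg method, with 0.05 or less as the threshold. Differences on this scale understate the change of genes with low FPKM. Over all mRNAs the median difference was 0.13, and it moved to -0.01 with median-of-ratios scaling and to -0.04 with quantile normalization.

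After birth, 10 of the 50 members rose and 0 fell. Among those that rose were the chemokines CCL2, CCL19, XCL1 and CXCL2, the chemokine receptors CCR1 and CX3CR1, the atypical receptor ACKR3, and the receptor chains IL4R and IL10RA. The 10 make up 20.0% of the members, where 5.41% of all mRNAs were called higher and 1.45% lower. No interleukin and no colony stimulating factor passed in limma, although 1 of the 8, IL10, had an unadjusted p under 0.05. Among the members that were lower in the neonatal group, 2, CCL28 and CCR7, had an unadjusted p under 0.05 in limma, which 6.6% of all mRNAs reached in this direction. In the other direction 13 members and 17.6% of all mRNAs did. All 10 members that rose had a mean of 1 FPKM or more over the 6 samples, a level that 32 members reached, and none of the 18 members under it passed in limma, where 1 had an unadjusted p under 0.05. A positive difference was found in 33 of the 50, against 59.9% of all mRNAs. The median difference was 0.28 over the members and 0.49 over the 32 with the higher levels. The lowest neonatal value exceeded the highest fetal one in 15 members, against 20.9% of all mRNAs, and in 2 the highest neonatal value was below the lowest fetal one, against 9.64%.

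**Figure D1:**
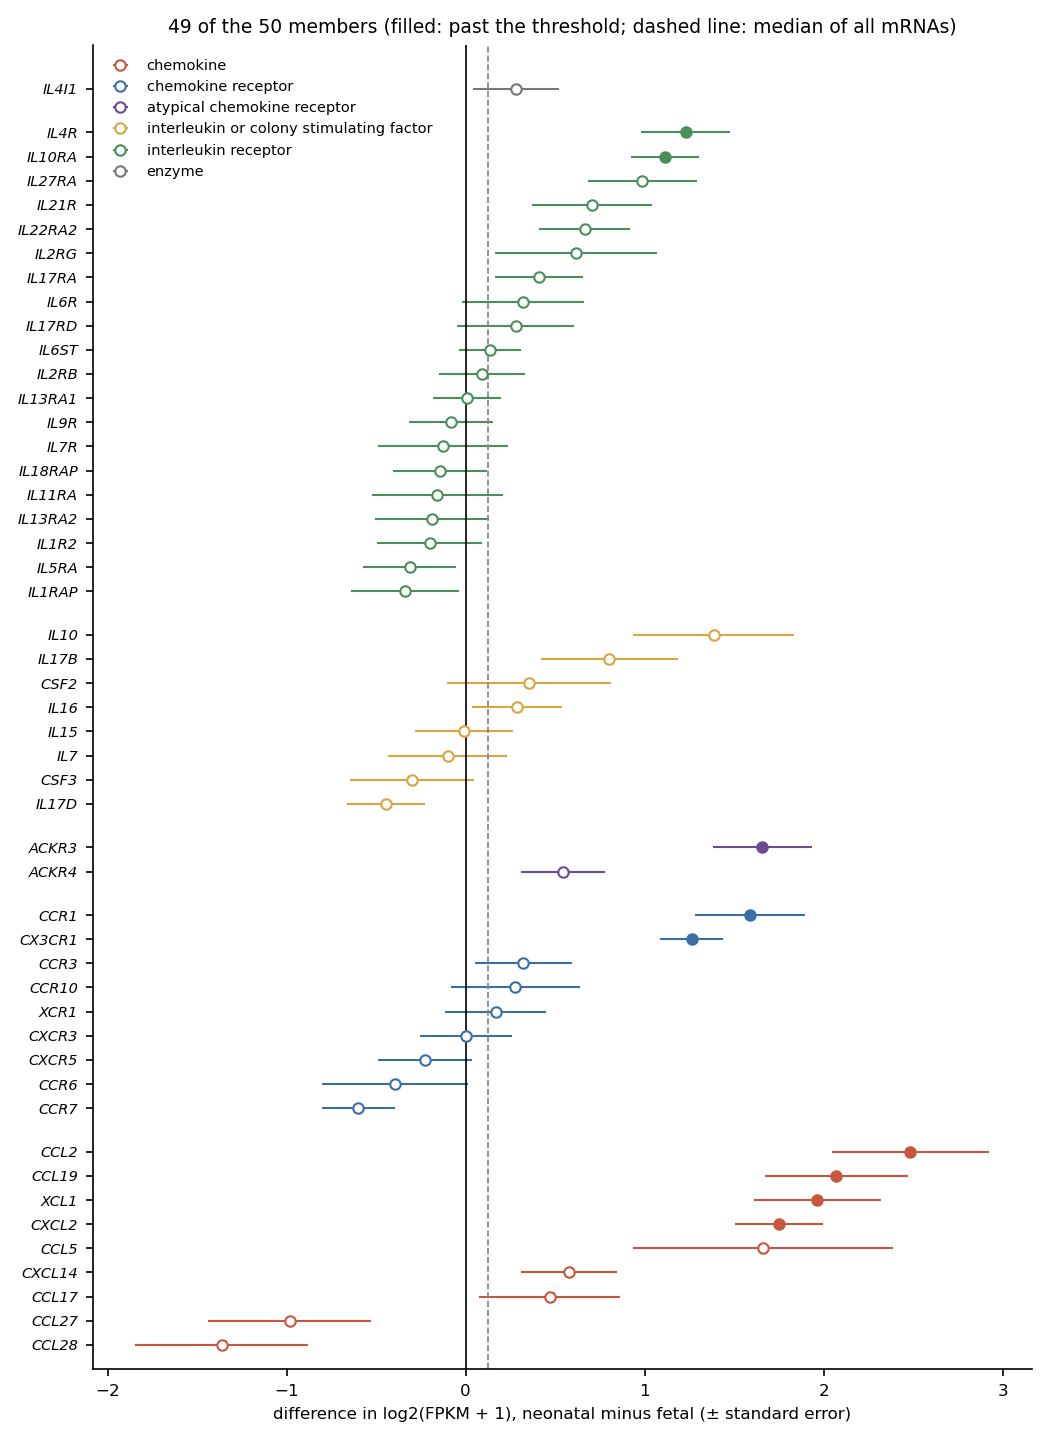
Difference in log2(FPKM + 1) between the neonatal and the fetal group for 49 of the 50 members, with its standard error, grouped and coloured by role. Filled points mark 9 members past the threshold, which all lie to the right of 1, and the dashed line marks the median of all mRNAs at 0.13.

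Among the 9 chemokines, 4 rose, and the differences ran from -1.36 for CCL28 to 2.49 for CCL2. CCL2, the ligand of CCR2 that draws monocytes, had 5.91, 2.32 and 0.996 FPKM in the fetuses, against 16.0, 16.6 and 25.9 FPKM in the neonates. The lowest neonatal value was well above the highest fetal one, and the mean was 6.34 times as high, with a difference of 2.49 (standard error 0.44, limma adjusted p = 0.0206). Its adjusted p lay between 0.0544 and 0.110 when Fetal2, Fetal3, Neonatal1, Neonatal2 or Neonatal3 was left out.

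CCL19, a ligand of CCR7 that guides dendritic cells and T cells into lymphoid tissue, had 2.71, 4.29 and 3.77 FPKM before birth and 10.4, 16.4 and 34.2 FPKM after it. The fetal values lay close together, and the neonatal values were all higher but differed widely, with Neonatal3 at the top. Its mean rose from 3.59 ± 0.803 to 20.3 ± 12.4 FPKM (SD, n = 3 each), a difference of 2.07 (standard error 0.40, limma adjusted p = 0.0261). Without Fetal1, Fetal2, Fetal3, Neonatal2 or Neonatal3 the adjusted p was between 0.0563 and 0.107.

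XCL1, which NK cells and activated CD8 T cells secrete, was listed at 0 in all fetal samples and had 2.28, 1.65 and 5.85 FPKM in the neonates, in the order of their numbers. Because an estimate that fails is also written as 0 by such programs, no fold is given. XCL1 is 1 of the 5 members that entered the table through neonatal samples alone, the group where it is high. Its value and its place among the 10 are therefore a description. The difference on the log2(FPKM + 1) scale was 1.96 (limma adjusted p = 0.0219), and the adjusted p lay between 0.0783 and 0.105 without Fetal1, Fetal2 or Fetal3.

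CXCL2, a neutrophil attractant of the CXC family, had 0.586, 0.206 and 0.0962 FPKM in the fetal and 2.43, 3.99 and 3.66 FPKM in the neonatal samples. The study's own gene list names the same identifier CXCL3, a close relative, so that reads of near-identical family members may be shared and the name is uncertain. The neonatal mean was 11.3 times the fetal one, from a low base, and the difference was 1.75 (standard error 0.25, limma adjusted p = 0.00960). Leaving out Fetal2 or Neonatal3 raised the adjusted p to 0.0633 and 0.0508.

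CCL5, which acts on CCR1 and other receptors and is made by T cells and macrophages, had the highest mean level of the chemokines, 16.5 FPKM over the 6 samples. It was measured at 4.15, 6.17 and 5.85 FPKM before birth and 4.69, 52.9 and 25.1 FPKM after birth. Neonatal1 lay within the fetal range, while both other neonatal values were several times above it, and the difference of 1.66 did not pass (standard error 0.73, limma adjusted p = 0.215). Without Neonatal1 the difference was 2.57 and the adjusted p was 0.0274.

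CXCL14, a chemokine of epithelia and fibroblasts, was next, at 12.5, 8.21 and 17.9 FPKM before birth and 19.3, 18.6 and 18.5 FPKM after it. The neonatal values were nearly equal and just above the highest fetal value (difference 0.58, limma adjusted p = 0.238).

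The mucosal and skin chemokines CCL28 and CCL27, both ligands of CCR10, had the lowest differences of all members. CCL28 had 10.5, 3.45 and 4.58 FPKM in the fetuses, against 0.447, 1.68 and 3.34 FPKM in the neonates, so that each neonatal value lay below each fetal one (difference -1.36, standard error 0.48, limma adjusted p = 0.142). CCL27 had 4.05, 1.69 and 0.696 FPKM in Fetal1, Fetal2 and Fetal3 and 1.25 and 0.326 FPKM in Neonatal1 and Neonatal3, and it was listed at 0 in Neonatal2 (difference -0.98, limma adjusted p = 0.239). Their receptor CCR10 was listed at 0 in 3 of the 6 samples and reached 1.32 FPKM in Neonatal3. CCL17, a ligand of CCR4, was listed at 0 in every sample but Neonatal3, where it had 1.66 FPKM.

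**Figure D2:**
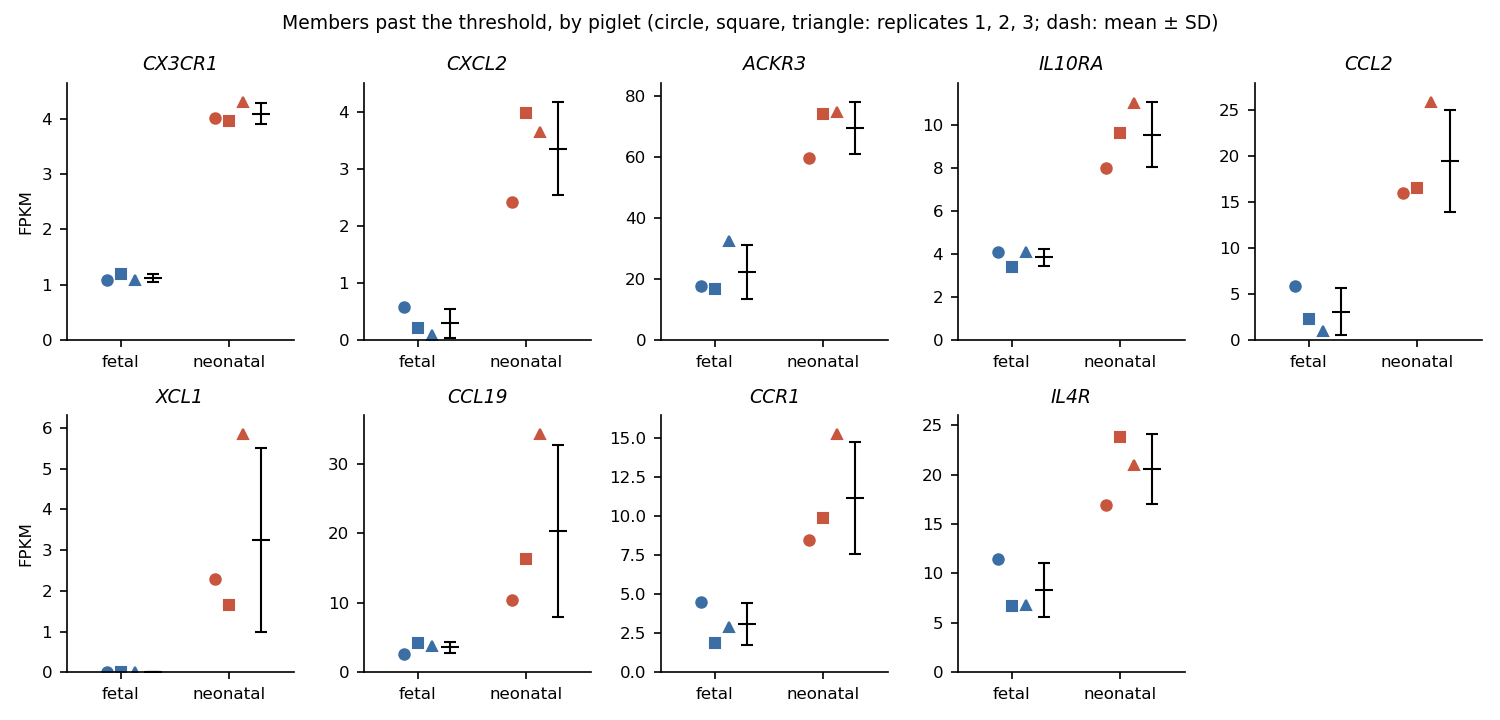
FPKM of 9 members past the threshold in each piglet, ordered by adjusted p, with the replicates as circles, squares and triangles and the mean ± SD of each group as a dash with a bar. In each panel all 3 neonatal values lie above all 3 fetal values, and for IL4R the nearest values are 16.9 FPKM in Neonatal1 and 11.5 FPKM in Fetal1.

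Of the 10 chemokine receptors, 3 rose, and these were among the 4 with a mean of 1 FPKM or more. CX3CR1, the receptor of fractalkine on monocytes, macrophages and some cytotoxic lymphocytes, had 1.08, 1.2 and 1.08 FPKM in the fetal and 4.01, 3.96 and 4.30 FPKM in the neonatal samples. Within each group the values were nearly the same, which gave it the lowest adjusted p of all members. Its mean rose 3.65-fold, with a difference of 1.26 (standard error 0.18, limma adjusted p = 0.00950), and of the 6 samples it was only without Fetal2 that the adjusted p exceeded the threshold, at 0.0554.

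CCR1, a receptor of inflammatory CC chemokines on monocytes and neutrophils, rose from 4.51, 1.85 and 2.89 FPKM to 8.45, 9.84 and 15.2 FPKM. Fetal1 had the highest fetal value, Neonatal1 the lowest neonatal value and Neonatal3 the highest, and the groups did not overlap. Its mean rose 3.62-fold, with a difference of 1.59 (standard error 0.31, limma adjusted p = 0.0276). The call held without Neonatal1, and without any of the other samples the adjusted p was between 0.0524 and 0.118.

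CCR7, the receptor that brings dendritic cells and naive lymphocytes to lymph nodes, had lower values after birth, unlike its ligand CCL19. It had 2.43, 3.05 and 2.72 FPKM before birth and 1.08, 1.72 and 1.62 FPKM after it, without overlap, but the difference of -0.60 was not past the threshold (standard error 0.20, limma adjusted p = 0.128). Whether the differences of CCL19 and CCR7 differ from each other was not tested.

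The other 6 receptors, CCR3, CCR6, CCR10, CXCR3, CXCR5 and XCR1, had means under 1 FPKM, and their groups overlapped. XCR1, which marks cross-presenting dendritic cells and is the receptor of XCL1, had 0.0649, 0.509 and 0.00981 FPKM before birth and 0.120, 0.808 and 0.134 FPKM after birth. Fetal2 held the highest fetal value of 5 of the 6. CXCR5, the receptor of B cell follicles, was listed at 0 in 4 samples and had 0.668 FPKM in Fetal2.

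ACKR3, an atypical receptor that binds and removes CXCL12, had the second highest level of the members, 45.9 FPKM over the 6 samples. It was measured at 17.7, 16.6 and 32.4 FPKM in the fetuses, against 59.7, 74.2 and 74.8 FPKM in the neonates. Fetal3 stood above the other fetal samples, yet every neonatal value was far above it. The mean rose 3.13-fold, with a difference of 1.66 (standard error 0.28, limma adjusted p = 0.0171), and the adjusted p lay between 0.0761 and 0.0881 without Fetal1, Fetal2, Neonatal2 or Neonatal3. ACKR4, which removes the CCR7 ligands among others, had 0.526, 0.772 and 0.126 FPKM before birth and 1.23, 1.08 and 1.03 FPKM after it, also without overlap (difference 0.54, limma adjusted p = 0.206).

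**Figure D3:**
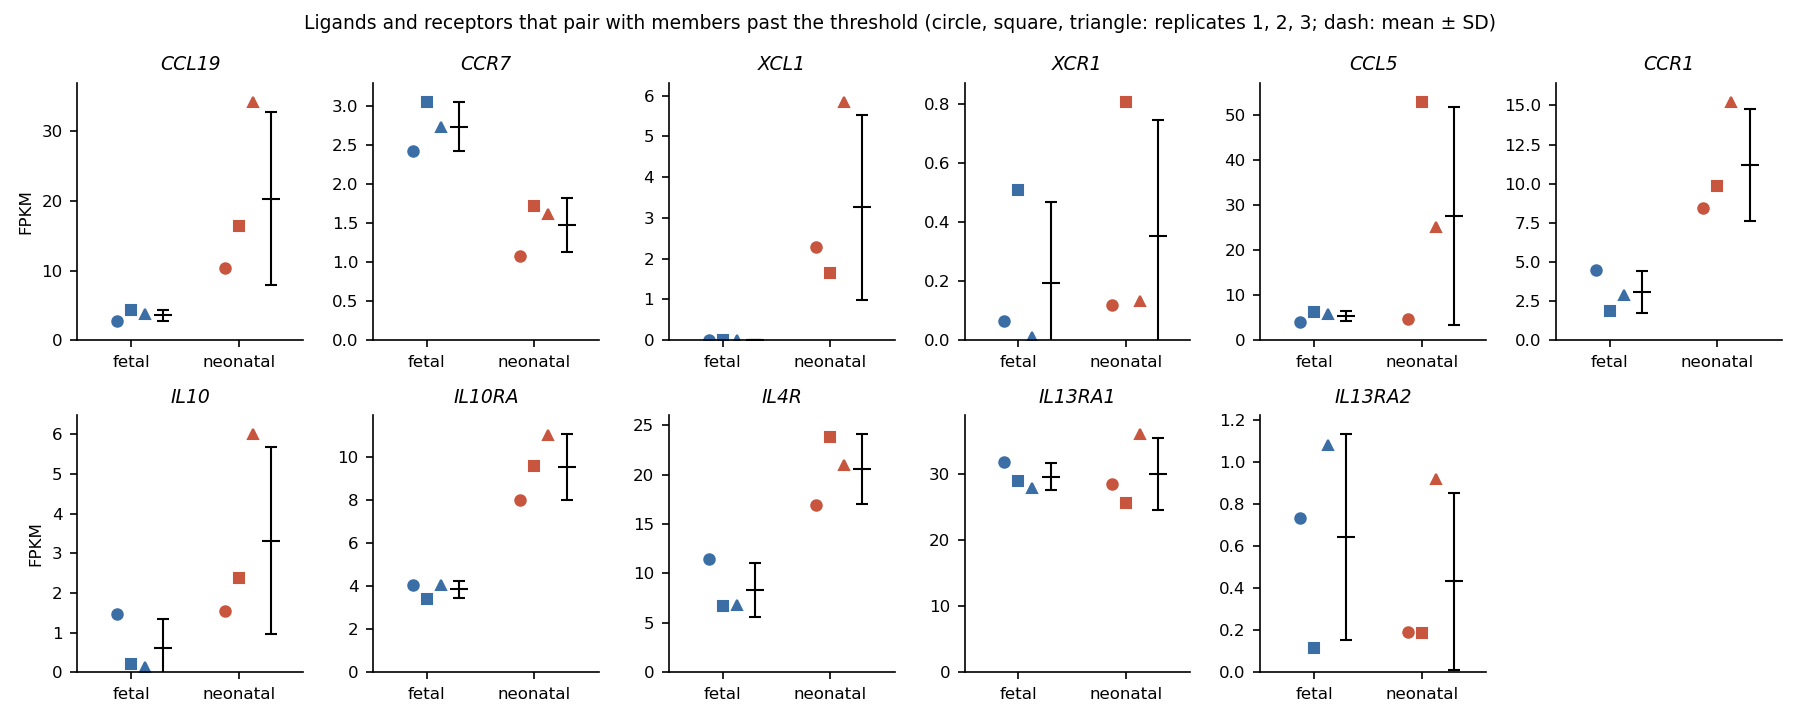
FPKM in each piglet of the ligands and receptors that pair with members past the threshold: CCL19 and CCR7, XCL1 and XCR1, CCL5 and CCR1, IL10 and IL10RA, and IL4R with the IL-13 receptor chains. Symbols are the replicates, dashes with bars are the mean ± SD (bars end at 0), and CCL19 lies higher and CCR7 lower in all neonatal samples.

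Among the 8 interleukins and colony stimulating factors, differences ran from -0.45 to 1.39. IL10, which restrains inflammatory macrophages, had the largest, with 1.47, 0.217 and 0.134 FPKM in the fetal and 1.56, 2.39 and 6.0 FPKM in the neonatal samples. All neonatal values were higher, but Fetal1 and Neonatal1 were nearly equal, and the difference of 1.39 did not pass (standard error 0.45, limma adjusted p = 0.115). IL17B had the highest level of these factors, at 4.66, 8.94 and 2.31 FPKM before birth and 7.38, 9.30 and 10.5 FPKM after it, with overlap at Fetal2 (difference 0.80, limma adjusted p = 0.247). Its relative IL17D had 3.53, 2.66 and 3.65 FPKM before and 2.79, 2.05 and 1.65 FPKM after birth (difference -0.45, limma adjusted p = 0.260).

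The lymphocyte survival factors IL7 and IL15, and IL16, which attracts CD4 cells, had group means between 2.31 and 3.83 FPKM, and all 3 overlapped between the groups. CSF2, the growth factor that alveolar macrophages need to mature, ranged more widely within the fetal group than between the groups. It had 4.51, 1.56 and 0.387 FPKM in Fetal1, Fetal2 and Fetal3 but 2.41, 2.34 and 2.60 FPKM in the neonatal samples, which lay within the fetal range (difference 0.36, limma adjusted p = 0.668). CSF3, the neutrophil growth factor, also had its highest value in Fetal1, at 1.30 FPKM, and lay between 0 and 0.516 FPKM in the neonatal samples.

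Of the 20 interleukin receptor chains, 2 rose, or 10.0%, and 16 overlapped between the groups. Over all mRNAs 5.41% were called higher, and 10128 of 14579 overlapped. IL4R, the chain through which IL-4 and IL-13 signal, rose from 11.5, 6.75 and 6.82 FPKM to 16.9, 23.8 and 21 FPKM. Fetal1 was the highest of its group and Neonatal1 the lowest, with a gap between them. The difference was 1.23 (standard error 0.25, limma adjusted p = 0.0308), and the adjusted p lay between 0.104 and 0.137 without Fetal2, Fetal3, Neonatal2 or Neonatal3. Its partner chain IL13RA1 had 31.9, 29.0 and 27.9 FPKM in the fetal and 28.5, 25.6 and 36.0 FPKM in the neonatal samples, where the groups overlapped fully (difference 0.01, limma adjusted p = 0.980). The sign of this difference turned under both scalings, to -0.16 and -0.27. The decoy chain IL13RA2 stayed at or below 1.08 FPKM in all samples.

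IL10RA, the ligand-binding chain for IL-10, had 4.08, 3.41 and 4.07 FPKM before birth and 8.0, 9.6 and 11 FPKM after it. Its mean rose 2.48-fold, with a difference of 1.11 (standard error 0.19, limma adjusted p = 0.0183). Leaving out any sample but Neonatal1 put the adjusted p between 0.0583 and 0.0958. IL22RA2, a soluble decoy for IL-22, was listed at 0 in Fetal2 and Fetal3 and had 0.0654 FPKM in Fetal1, against 1.16, 0.583 and 0.244 FPKM after birth (difference 0.67, limma adjusted p = 0.165). Like XCL1, IL22RA2 is 1 of the 5 members that entered the table through neonatal samples alone, so the filter favoured this separation.

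Among the chains that work with gp130, the shared chain IL6ST had the highest level of all 50 members, 54.3, 48.4 and 46.3 FPKM in the fetal and 50.5, 57.8 and 55.8 FPKM in the neonatal samples. Its values spanned a narrow range and overlapped (difference 0.14, limma adjusted p = 0.659), and the difference was -0.04 and -0.21 under median-of-ratios scaling and quantile normalization. IL11RA was the third highest, at 35.5, 31.1 and 64.2 FPKM before and 24, 39.8 and 53.1 FPKM after birth, and the spread within each group exceeded the difference of -0.16 (limma adjusted p = 0.818). IL27RA, which pairs with gp130 to bind IL-27, had 6.23, 3.91 and 6.26 FPKM in the fetal and 7.28, 14.8 and 14.3 FPKM in the neonatal samples. These did not overlap, but Neonatal1 stood near the fetal values, and the difference of 0.99 did not pass (standard error 0.30, limma adjusted p = 0.103). It was 1.29 without Neonatal1, with an adjusted p of 0.0426. IL6R, the private IL-6 chain, overlapped between the groups, with means of 4.51 and 5.51 FPKM.

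The common gamma chain IL2RG had 1.5, 2.50 and 4.01 FPKM before and 4.28, 2.02 and 8.90 FPKM after birth. Neonatal2 lay within the fetal range (difference 0.62, limma adjusted p = 0.442). Its lymphoid partner chains were low: IL2RB, IL9R and IL21R had means over the 6 samples between 0.199 and 0.851 FPKM, and IL7R had a mean of 1.30 FPKM in both groups. The IL-17 receptor chain IL17RA had means of 7.33 and 9.97 FPKM, and IL17RD, also known for damping FGF signals, of 3.17 and 4.29 FPKM, with overlap in each case. The remaining chains of the IL-1 receptor family, the decoy IL1R2, IL1RAP and IL18RAP, all had differences below 0, between -0.34 and -0.14, and overlapped. With a sample left out, the differences of IL1R2 and IL18RAP reached 0.02 and 0.09 at most. A second identifier that the study names IL1R2, kept apart below, had a difference above 0. IL5RA, the IL-5 chain of eosinophils and B cells, had at most 0.781 FPKM in any sample, and IL4I1 at most 1.2 FPKM.

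A pair of identifiers without a reference symbol carry a member's name in the study's list of called genes. Because that list holds only genes the study called different, they were kept apart from the 50. The identifier named CXCL10, the interferon-induced ligand of CXCR3, had 4.38, 2.49 and 2.62 FPKM before birth and 7.53, 8.83 and 133.9 FPKM after birth. The groups did not overlap, but Neonatal3 was many times above every other sample, and the difference of 2.46 did not pass (standard error 0.97, limma adjusted p = 0.179). Without Neonatal3 it was 1.17. CXCR3 itself had at most 0.517 FPKM. A second identifier named IL1R2 overlapped between the groups, with 2.48 and 1.51 FPKM in Fetal1 and Fetal2, 0 in Fetal3, and 2.35, 8.14 and 3.0 FPKM after birth. Its difference was 1.27 (limma adjusted p = 0.204), against -0.20 for the IL1R2 among the 50, so the direction of IL1R2 is unsettled. CCL3L1, whose symbol does not end in digits after the CCL stem and which binds CCR1, had 0.60 and 0.230 FPKM in Fetal1 and Fetal2, 0 in Fetal3, and 0.502, 4.83 and 8.95 FPKM in the neonatal samples (limma adjusted p = 0.138).

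The other genes of these pathways were taken from a list of 61, of which 39 had a row. Of these 39, 3 rose and 1 fell, or 7.69% and 2.56%, shares near the 5.41% and 1.45% of all mRNAs, and their median difference was 0.34. CSF2RB, the chain shared by the receptors of CSF2, IL-3 and IL-5, rose from 1.95, 2.91 and 2.43 FPKM to 6.41, 6.85 and 5.42 FPKM (difference 1.08, limma adjusted p = 0.0225). LIFR, which joins gp130 to bind LIF, fell from 29.1, 23.4 and 20.2 FPKM to 10.0, 7.57 and 9.71 FPKM (difference -1.31, limma adjusted p = 0.0137), whereas OSMR, the gp130 partner for oncostatin M, overlapped between the groups at means of 5.64 and 6.32 FPKM. Of the 9 JAK and STAT genes, JAK3, the kinase bound to the common gamma chain, rose from 3.59, 4.84 and 6.27 FPKM to 13.9, 8.60 and 11.3 FPKM (limma adjusted p = 0.0496). STAT2, STAT3 and JAK1 were higher in all neonatal than in all fetal samples without passing, at adjusted p values in limma of 0.215, 0.217 and 0.375. Such a separation was shown by 20.9% of all mRNAs. JAK2, a kinase of the common beta chain and gp130 receptors, was lower in all neonatal samples, at 4.03, 4.85 and 6.41 FPKM against 6.67, 6.48 and 7.20 FPKM (difference -0.37, limma adjusted p = 0.305). In this direction 9.64% of all mRNAs were separated. None of the 8 SOCS, PIAS and phosphatase genes passed in limma, where 2 had an unadjusted p under 0.05 upwards and 1 downwards. Of 13 genes that signal below chemokine receptors, VAV1 rose, from 3.95, 2.32 and 4.08 FPKM to 7.41, 10.1 and 11.5 FPKM (limma adjusted p = 0.0289). DOCK2, a leukocyte activator of RAC proteins, was higher in all neonatal samples, with means of 2.53 and 8.35 FPKM and an adjusted p in limma of 0.0633. Without Fetal1, Fetal2, Neonatal2 or Neonatal3, 0 of the 39 genes passed in limma, and 1 did without Fetal3.

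Markers of leukocyte types were set beside these results, since a difference in bulk tissue may come from the number of cells or from RNA per cell, which cannot be told apart. The summed FPKM of 3 pan-leukocyte genes was 19.8 to 33.1 in the fetal and 37.9 to 68.1 in the neonatal samples, and LCP1 was the 1 gene past the threshold. Without LCP1 these sums overlapped slightly, 11.3 to 20.7 FPKM against 20.1 to 44.4 FPKM. The 5 neutrophil genes summed to 31.1 to 43.7 FPKM before and 198 to 295 FPKM after birth, where S100A8 made up most of the sum. S100A8 and LTF rose, and the other 4 genes without S100A8 summed to 1.58 to 6.01 FPKM before and 12.7 to 14.6 FPKM after birth. ELANE, a granule protease of immature neutrophils, went against this, with 1.28, 0.562 and 0.0710 FPKM in the fetuses and 0 in all neonates (difference -0.64, limma adjusted p = 0.237). For the 6 macrophage and monocyte genes the sums overlapped, 275 to 660 FPKM against 502 to 1190 FPKM, and 0 passed in limma, although 5 had an unadjusted p under 0.05. All 6 differences were positive, with a median of 1.16, where 59.9% of all mRNAs had a positive difference. The sums of 8 T cell genes overlapped too, at 7.08 to 9.34 FPKM against 5.41 to 16.8 FPKM, with 5 positive differences and a median of 0.11. The summed level of 4 B cell genes was lower in all neonatal samples, 0.707 to 2.01 FPKM against 2.94 to 3.36 FPKM, and that of 3 NK and cytotoxic genes was higher, 7.59 to 11.9 FPKM against 3.64 to 5.97 FPKM, with 0 past the threshold in either list in limma and an unadjusted p under 0.05 in 2 of the former and 1 of the latter. Lymphatic endothelial genes summed to 67.5 to 115 FPKM before and 38.8 to 44.4 FPKM after birth, which rested on LYVE1, the 1 gene of the list that fell. The other 3 lymphatic genes overlapped in their sums, 10.5 to 15.9 FPKM against 7.85 to 16.4 FPKM. The sums of 3 endothelial genes overlapped as well, 181 to 211 FPKM against 173.5 to 193 FPKM, where PECAM1 made up most of the sum. Without PECAM1 the other 2 were lower in all neonates, 47.8 to 50.6 FPKM against 61.1 to 70.7 FPKM. Of the 3, 0 passed in limma, and 1 had an unadjusted p under 0.05 downwards. No marker with a row was at 0 in all samples. FCER1A, the 1 dendritic cell marker with a row, was lower in all neonates. It had 1.36, 0.173 and 1.38 FPKM, against 1.52, 3.60 and 1.48 FPKM in the fetuses (limma adjusted p = 0.291). The 2 mast cell and eosinophil genes had higher sums in all neonates, 5.26 to 9.06 FPKM against 3.39 to 4.43 FPKM, and the erythroid sums overlapped. Of the liver genes, expected to be absent, ALB had at most 0.57 FPKM but APOA1 8.70 to 32.4 FPKM. The 6 lung epithelial genes summed to 4854 to 5786 FPKM before and 6114 to 11360 FPKM after birth, where SFTPC made up most of the sum. Without SFTPC the sums of the other 5, among them SFTPB, overlapped slightly, 1404 to 1884 FPKM against 1882 to 2566 FPKM. Of the 6, 0 passed the threshold in limma, with an unadjusted p under 0.05 in CDH1 upwards and in EPCAM downwards. The 4 mesenchymal genes also had higher sums in all neonates, 1303 to 1587 FPKM against 747 to 938 FPKM, and ACTA2 rose (difference 1.74, limma adjusted p = 0.0138). The part of these cell types in the results was not tested.

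**Figure D4:**
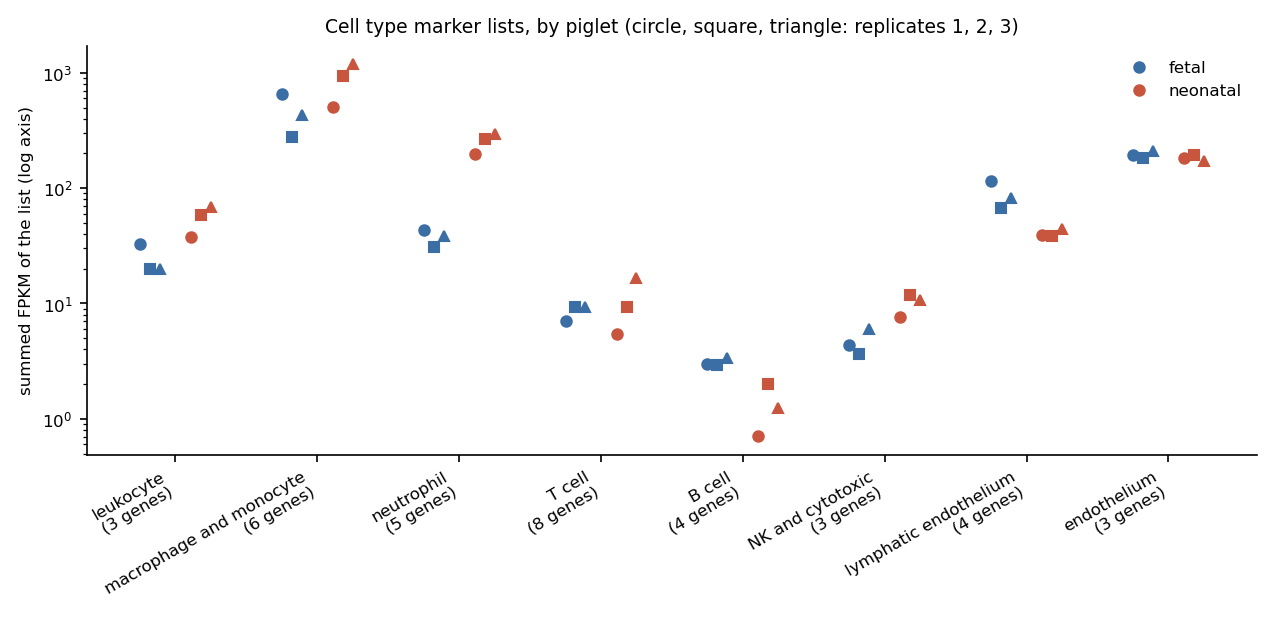
Summed FPKM of the marker genes of each cell type in each piglet on a log axis, fetal samples in blue and neonatal samples in red, with the replicates as circles, squares and triangles. The neutrophil sums lie at 31.1 to 43.7 FPKM in the fetal and 198 to 295 FPKM in the neonatal samples, while the macrophage and T cell sums overlap.

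The neonatal piglets were not equally high. Over the 10 members that rose, the median difference from the fetal mean was 1.29, 1.61 and 1.95 on the log2 scale in Neonatal1, Neonatal2 and Neonatal3. Neonatal3 had the highest neonatal value of 8 of these 10 and of 25 of all 50 members, and Neonatal1 had the lowest value of 8 of the 10 and of 25 of the 50, with 3 ties. After median-of-ratios scaling these numbers were 6 and 21 for Neonatal3 and 7 and 22 for Neonatal1. The macrophage, leukocyte and neutrophil marker sums followed the same order, lowest in Neonatal1 and highest in Neonatal3. So did the T cell, lung epithelial, mesenchymal and erythroid sums, so this order was not particular to leukocyte markers. The B cell, NK, endothelial and lymphatic sums did not follow it. The factors of the median-of-ratios scaling also rose in this order, 1.00, 1.09 and 1.15. In the fetal group the medians over the 10 members were 0.19, -0.12 and -0.02. Among the 32 members with a mean of 1 FPKM or more, the highest value was over 3 times the lowest in 9 within the fetal group and in 9 within the neonatal group.

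Several members lie side by side in the RefSeq annotation of the later Sscrofa11.1 assembly, which was used for gene order alone. CCL19, CCL27 and IL11RA stand in a row with 1 other gene between the first of them and CCL27. Of these neighbours, CCL19 rose, while CCL27 and IL11RA did not pass. XCR1, CCR1 and CCR3 follow each other. In this row CCR1 rose, and XCR1 and CCR3 stayed under 1 FPKM in every sample. IL21R and IL4R are direct neighbours, of which IL4R rose and IL21R, a receptor of lymphocytes, had 0.414, 0.536 and 0.13 FPKM before and 1.13, 0.457 and 2.44 FPKM after birth (difference 0.71, limma adjusted p = 0.244).

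The number of members called fell when any sample but Neonatal1 was left out. Without Fetal1, Fetal2 or Fetal3, 4, 0 and 3 members were past the threshold, and without Neonatal2 or Neonatal3, 3 and 2, while 11 passed without Neonatal1, of which 9 were among the 10. Over all mRNAs the same omissions gave 304, 196, 397, 255, 308 and 944 calls in all, against 1001 with all samples. Without Fetal2, where no member passed in limma, 13 members had an unadjusted p under 0.05 and a higher neonatal level. With all 6 samples 13 members did as well, against 17.6% of all mRNAs. That share was not computed without Fetal2. Each of the 10 members kept a positive difference in all of these fits. With 2 samples in a group, the spread was estimated from fewer animals.

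**Figure D5:**
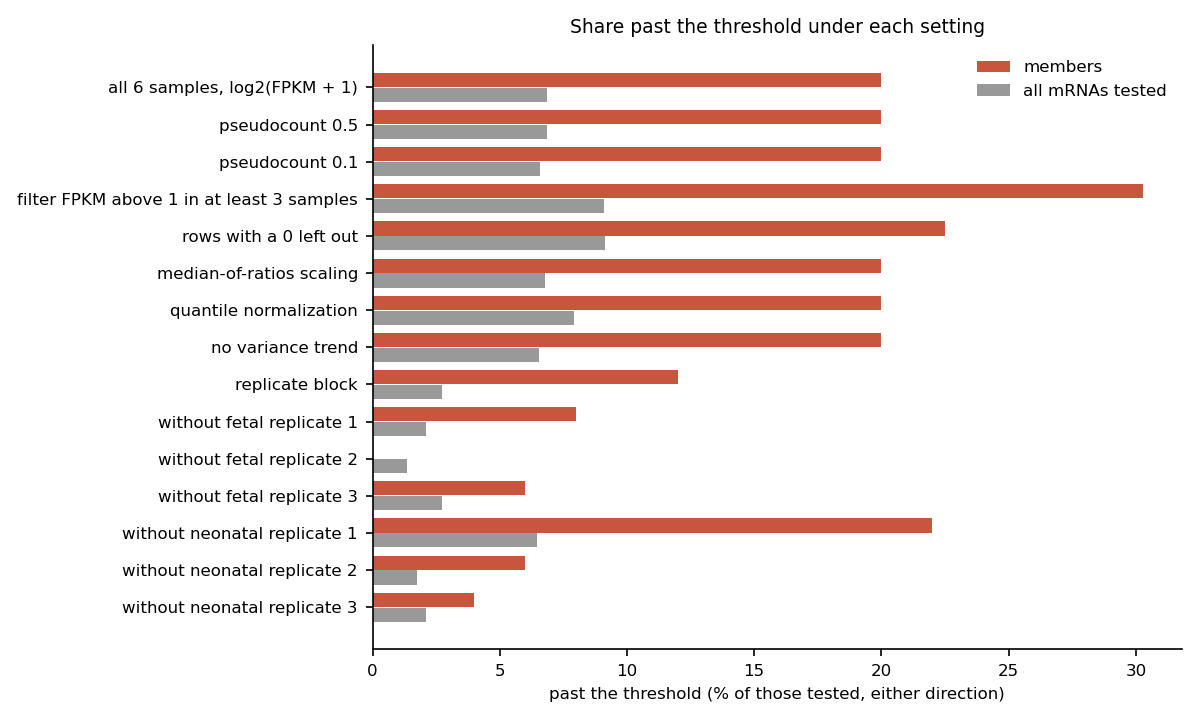
Percent of the members (red) and of all mRNAs tested (grey) past the threshold in either direction under each setting, with bars from 0. With all 6 samples 20.0% of the members and 6.87% of the mRNAs passed, and without Fetal2 none of the members and 1.34% of the mRNAs did.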

How the data were processed

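RNA of lung tissue from 3 fetal and 3 neonatal piglets was sequenced, 1 library each. The deposited values are FPKM, which the authors computed with Cufflinks 2.2.1 after TopHat 2.1.0 had aligned the filtered, strand-specific reads to the Sscrofa10.2 genome, keeping mRNAs above 0.5 FPKM in at least 1 sample. Read counts, and hence counting errors, are unknown here. All 6 value columns were matched to samples by name. Gene symbols came from a reference table that matched 9478 of 14579 identifiers. The deposited lncRNA table was not used here.

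All mRNAs were fitted on log2(FPKM + 1) with limma (version 3.58.1, under R 4.3.3), letting the prior variance follow the mean level. The fit was first tested on simulated data. Summaries and figures used Python 3.11.15 with pandas 2.3.3 and matplotlib 3.10.9. The members and lists were chosen with earlier results of these data known. Named with values in every sample were members past the threshold, the 10 with the highest mean FPKM, ligand or receptor partners of called members, and the 6 largest differences among those not called. Other members were named with their group. For 1 member past the threshold and 1 other pathway gene, which enter the counts, values are not reported here. Alternatives were pseudocounts of 0.5 and 0.1, FPKM above 1 in at least 3 samples, rows with a 0 left out, median-of-ratios scaling, quantile normalization, a constant prior variance, a block for the replicate number, and leaving out each sample.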

Additional observations from a re-analysis of the deposited data

How the results depend on the processing

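The count of 10 members that rose was 10 or 9 under the 7 alternatives with all 6 samples and no block, and 0 members fell in any fit. With the replicate number as a block it was 6. Over all mRNAs the calls under the block were 401, against 1001 without it. The numbers do not pair the piglets, which came from different sows. Same-numbered deviations correlated at -0.04, -0.004 and 0.0005 over the mRNAs. The cause of the lower counts was not tested. With 1 sample left out, the count was 0 to 11. The count of other pathway genes past the threshold was 1 under the block and 0 to 5 with a sample left out, against 4. The median difference of the members, 0.28, was 0.54 with a pseudocount of 0.1 and 0.54 with the stricter FPKM filter, and it was 0.20 under both scalings. Over all mRNAs, 789 of 1001 calls were higher in the neonatal group, 650 of 985 after median-of-ratios scaling and 669 of 1155 after quantile normalization. Signs turned for several members with small differences, and only some are given here. Among them, IL13RA1 was -0.16 and -0.27 under the 2 scalings and from -0.13 to 0.11 with a sample left out. It was below 0 without Fetal2 (-0.0035), Fetal3 (-0.03) and Neonatal3. With a sample left out, IL7 ranged from -0.35 to 0.26 and CSF2 from -0.12 to 0.87. IL6ST was -0.037 and -0.21 under the scalings. With a sample left out, IL11RA ranged from -0.41 to 0.15, above 0 without Fetal3 or Neonatal1, and XCR1 from -0.060 to 0.35, below 0 without Neonatal2. Rows below the authors' FPKM limit were not in the table, so a fit with no filter was not run. The unknown read depth limits statements on members under 1 FPKM.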
